A study of Mus musculus with 8 samples.

Results

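The genes described here are 8 genes of cholesterol synthesis and of its transcriptional control by SREBP2, the sterol-sensing transcription factor: Srebf2, Scap, Insig1, Hmgcs1, Idi1, Fdps, Fdft1 and Sqle. They were taken by symbol from the FPKM table, which pairs symbols with Ensembl genes, and joined by Ensembl gene to the count table. All 8 were among the 48526 genes of the count table and all 8 passed the filter on low counts, as did 15580 genes in all. RNA-seq was done on neuro-intermediate lobes of the mouse pituitary, dissected from adult C57B6 males aged 3 months, and each library was made from a pool of 5 lobes. The 4 groups, with 2 libraries each, were WT, ACreb3l2, AXBP1 and ACreb3l2/AXBP1. In the last 3 groups the POMC promoter drives an acidic dominant negative form of the bZIP factor Creb3l2, of XBP1, or both, and such a form pairs with the endogenous factor and keeps it off DNA. The comparison asks whether genes of sterol synthesis differ where these factors are blocked.

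Several features limit the groups as a model. The promoter acts in POMC cells, which in this tissue are the melanotropes, while the lobe also holds posterior lobe glia, vessels and other cells that carry no transgene product. In bulk RNA, fewer cells of a type and less RNA per cell cannot be told apart. The study describes more than 1 line per transgene with results shown for 1 of them, and the labels do not say whether the pools of a group share litters or dissection days, so the p-values measure the spread between these pools. Libraries held 28256086 to 37988912 counts and 23862 to 24784 genes with a count. The labels name the cells melanotropes, and the melanotrope transcripts Pomc (59960 to 141231 FPKM) and Pax7 (52.2 to 71.9 FPKM) were abundant in all 8 libraries. So was the anterior lobe transcript Gh, at 1559 to 6745 FPKM and it is no product of melanotropes. The transgenes hold the coding sequence of each factor from its leucine zipper on and the endogenous genes are intact, so reads of both could be counted under Creb3l2 and Xbp1. No rise passed the test. Against WT the log2 change of Creb3l2 was -0.08 (edgeR adjusted p = 0.874) where ACreb3l2 was the only transgene and -0.69 with both (adjusted p = 0.0428, called lower), and that of Xbp1 was 0.06 in AXBP1 (adjusted p = 0.900) and 0.27 in ACreb3l2/AXBP1 (adjusted p = 0.227). These counts therefore do not show the transgenes, and the groups are named as labelled. Lines had been selected by the study for transgene mRNA in excess of the endogenous mRNA, a measurement not analysed here.

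Cells make cholesterol from acetyl-CoA through the mevalonate pathway. SREBP2, encoded by Srebf2, is made as a precursor in the membrane of the endoplasmic reticulum, bound to its escort SCAP. When membrane sterol is low, SCAP carries the precursor to the Golgi, where proteases release the part that enters the nucleus and switches on the genes of the pathway. When sterol is high, INSIG1 holds SCAP in the endoplasmic reticulum, and Insig1 is itself a target of SREBPs. Secretory cells such as melanotropes have an extended endoplasmic reticulum, the membrane in which both this control and most steps of the synthesis take place. The remaining genes encode enzymes in pathway order: Hmgcs1 makes HMG-CoA, Idi1 isomerises isopentenyl diphosphate, Fdps makes farnesyl diphosphate, Fdft1 (squalene synthase) commits it to sterols, and Sqle oxidises squalene.

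SREBPs bind the sterol regulatory element, often beside a CCAAT box bound by NF-Y. The promoter sequences of the 2 genes that hold such a match, Hmgcs1 and Srebf2, are therefore shown, with those of Insig1, the member that varied most between groups, and of Tmem97, the list gene with the largest called change. They come from RefSeq on build GRCm38.p6 and end before the first annotated exon. RefSeq promoters were at hand for 5 of the 8 genes (Srebf2, Scap, Insig1, Hmgcs1 and Idi1). Capitals mark TCACNCCA (core of the sterol element), CCAAT, the E-box CACGTG, and CCACGT. The last holds ACGT, the core of the bZIP motifs that the study found at peaks of both Creb3l2 and XBP1. Each was searched on both strands, so CCAAT can read ATTGG and CCACGT can read ACGTGG. The regions are chr13:119690101-119690350 (plus strand) for Hmgcs1, chr15:82147019-82147180 (plus) for Srebf2, chr5:28071162-28071362 (plus) for Insig1 and chr11:78550778-78550985 (minus) for Tmem97.
Hmgcs1: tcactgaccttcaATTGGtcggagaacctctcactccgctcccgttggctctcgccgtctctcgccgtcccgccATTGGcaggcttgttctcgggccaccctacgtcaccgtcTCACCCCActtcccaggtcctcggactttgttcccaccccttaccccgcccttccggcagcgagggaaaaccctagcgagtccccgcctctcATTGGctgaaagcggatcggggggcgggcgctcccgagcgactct
Srebf2: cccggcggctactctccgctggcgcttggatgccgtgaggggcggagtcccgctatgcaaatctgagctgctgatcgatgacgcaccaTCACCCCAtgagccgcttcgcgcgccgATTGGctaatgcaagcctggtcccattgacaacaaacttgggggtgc
Insig1: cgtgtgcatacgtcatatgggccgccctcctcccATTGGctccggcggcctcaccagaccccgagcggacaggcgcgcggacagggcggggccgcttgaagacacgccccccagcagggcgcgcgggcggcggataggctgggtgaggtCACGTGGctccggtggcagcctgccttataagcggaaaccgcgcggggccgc
Tmem97: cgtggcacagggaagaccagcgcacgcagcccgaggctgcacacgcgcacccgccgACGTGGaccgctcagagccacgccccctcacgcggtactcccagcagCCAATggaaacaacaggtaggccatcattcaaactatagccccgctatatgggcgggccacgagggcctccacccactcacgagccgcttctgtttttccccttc

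In the window from 250 bases before to 50 bases after the start, TCACCCCA was found in Hmgcs1 and Srebf2, against 1.56% of 32851 RefSeq promoters, and its longer form TCACCCCAC in Hmgcs1 alone, against 0.551%. The shorter form lies within the longer one. With any base allowed at the fifth position the shares over all promoters were 4.36% (TCACNCCA) and 1.24% (TCACNCCAC), and the same members held a match. Of 47 genes of the pathway lists below that have a RefSeq promoter, 2 held TCACNCCA (Apoe and Msmo1) and 0 held TCACNCCAC. CCAAT was found in 4 of the 5 genes (Hmgcs1, Idi1, Insig1 and Srebf2), against 37.4%. The Insig1 promoter held CACGTG (7.15% of promoters) overlapped by CCACGT (8.31%), and Scap held CACGTG. Tmem97 held CCACGT and CCAAT, and no TCACNCCA in this window. Of the 47 list genes, 29 held CCAAT, 9 CACGTG and 8 CCACGT. These are matches of letters, not bound sites.

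Of the 8 genes, 7 lay above the median level of the tested genes and Idi1 below it. On the FPKM scale, which allows comparison between genes, Insig1 was highest with a mean of 46.8 over the 8 libraries (35.9 to 64.1), above 90.9% of tested genes. Scap followed at 34.7 (32.4 to 38.5) and Fdps at 25.8 (22.0 to 30.8). Fdft1 (19.0), Sqle (18.6), Srebf2 (15.1) and Hmgcs1 (13.8) lay close together, with library ranges that overlapped from each to the next. Idi1 was lowest at 2.52 (1.87 to 3.16), below the median of all tested genes (7.87), and its range met that of no other member.

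Counts and FPKM did not measure Fdps alike. Fdps had 27 to 41 raw counts per library, fewer than Idi1 (80 to 121), while its FPKM was 22.0 to 30.8 against 1.87 to 3.16 for Idi1. Dividing counts by FPKM and by the library's total count gives the length, in kilobases, that the counts stand for. This was 0.0428 kb for Fdps (median of 8 libraries, 0.0298 to 0.0494) against 4.21 kb of annotated exons, or 0.0102 of that length. For the other 7 members the ratio was 0.360 (Idi1) to 1.04 (Insig1). Fdps (chr3:89093588-89101959, minus strand, GENCODE M21 on mm10) shares 1124 exon bases on the same strand with Gm43738, which was counted at 0 in every library, and its longest coding transcript aligns to 6 processed pseudogenes, Gm3571 at 98.9% identity over 1062 bases among them. Idi1 (chr13:8885501-8892451) aligns to 3 processed pseudogenes, with Gm13502 identical over 684 bases. Fdft1 aligns to the processed pseudogene Gm6781 (97.4% over 1249 bases), which had 0 to 7 raw counts per library. Insig1 aligns to the processed pseudogene Gm37784 (98.9% over 189 bases), which had 0 to 9. How the counting treated such reads was not tested, so the Fdps counts and, to a lesser degree, the Idi1 counts are uncertain, and FPKM values of Fdps are given beside its counts.

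**Figure D1:**
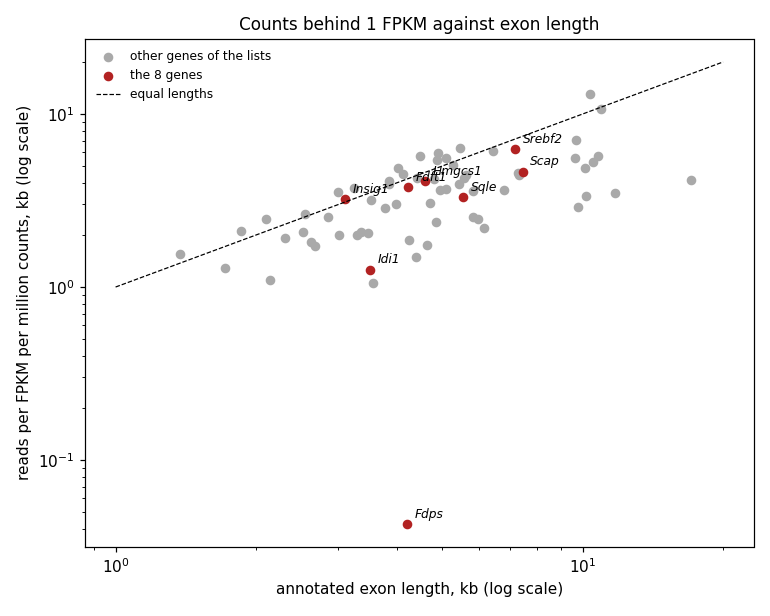
Length that the counts stand for per FPKM (kb, median of 8 libraries, log scale) against annotated exon length (kb, log scale) for the 8 genes (red) and the other genes of the lists (grey), with a dashed line at equality. Fdps sits at 0.0428 kb, far below all others, and Idi1 at 1.26 kb lies below the line as do most list genes.

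Exon bases shared with a gene on the opposite strand were found for Scap (985 bases, 5830462I19Rik), Fdft1 (774 bases, Ctsb), Hmgcs1 (557 bases, Gm48342) and Idi1 (323 bases, Gm48574). Whether counting used strand is not stated, so reads there cannot be assigned with certainty. Insig1 (chr5:28071363-28078662), Sqle (chr15:59315077-59331192) and Srebf2 (chr15:82147181-82205379) share no exon bases with another gene. The others lie at chr13:119690379-119708260 (Hmgcs1), chr9:110333288-110384950 (Scap) and chr14:63145150-63179578 (Fdft1).

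None of the 8 genes was called in any comparison at an edgeR adjusted p under 0.05. Normalised read counts, scaled to a common depth, are given for each library in the order replicate 1 and replicate 2, and a log2 change is given with its 95% interval from the edgeR fit.

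Of the control genes, Srebf2 was measured at 2691 and 3398 (WT), 3152 and 3242 (ACreb3l2), 3034 and 3137 (AXBP1) and 3174 and 2572 (ACreb3l2/AXBP1). The WT pair was wide enough to hold both single transgenic groups. Its log2 changes against WT were 0.07 (-0.21 to 0.35), 0.02 (-0.26 to 0.30) and -0.08 (-0.36 to 0.20) for ACreb3l2, AXBP1 and ACreb3l2/AXBP1.

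Scap was the steadiest of the 8, at 5136 and 5435 (WT), 5416 and 5053 (ACreb3l2), 5365 and 5205 (AXBP1) and 5329 and 4795 (ACreb3l2/AXBP1). All 4 groups overlapped. Against WT its log2 change was -0.01 (-0.20 to 0.18) in ACreb3l2, 0.00 (-0.19 to 0.19) in AXBP1 and -0.06 (-0.25 to 0.13) in ACreb3l2/AXBP1, and the intervals reach from 0.839-fold to 1.14-fold of WT.

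Insig1, the sterol-dependent anchor of SCAP, varied most between groups. It was measured at 5296 and 4907 (WT), 6150 and 5279 (ACreb3l2), 4226 and 4411 (AXBP1) and 4584 and 3497 (ACreb3l2/AXBP1). Both groups with AXBP1 lay below both WT libraries, and the ACreb3l2 libraries overlapped WT at the upper end. The log2 change against WT was 0.16 (-0.12 to 0.45) in ACreb3l2, -0.24 (-0.53 to 0.04) in AXBP1 and -0.34 (-0.62 to -0.05) in ACreb3l2/AXBP1. The last is 0.792 of the WT level, with an unadjusted p of 0.0250 and an adjusted p of 0.116 (edgeR quasi-likelihood test, Benjamini-Hochberg). The replicates of ACreb3l2/AXBP1 were apart: without the first the log2 change was -0.54 (adjusted p = 0.0219, a call), and without the second -0.16 (adjusted p = 0.551). In ACreb3l2 the log2 change was 0.05 without the first replicate and 0.27 without the second, and neither was called.

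Insig1 was also the member with the smallest p between the transgenic groups. ACreb3l2 lay above AXBP1 by 0.40 (0.12 to 0.69), with an unadjusted p of 0.0101 and an edgeR adjusted p of 0.272. ACreb3l2/AXBP1 lay below ACreb3l2 by a log2 change of -0.50 (-0.79 to -0.22), or 0.707-fold, with an unadjusted p of 0.00293 and an edgeR adjusted p of 0.688, and both of its libraries were below both ACreb3l2 libraries. DESeq2 called this last difference (log2 change -0.50, adjusted p = 0.0497). The 2 groups with AXBP1 differed from each other by -0.10 (-0.38 to 0.19) and overlapped.

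The first enzyme, Hmgcs1, had the largest positive change of the 8 in each comparison with WT. It was measured at 1654 and 1540 (WT), 1693 and 2109 (ACreb3l2), 1825 and 1846 (AXBP1) and 2025 and 1927 (ACreb3l2/AXBP1). Every transgenic library was above both WT libraries on this scale, but not by FPKM, where AXBP1 (12.56 and 12.94) lay within the WT range (12.97 and 11.76). Its log2 change against WT was 0.25 (0.01 to 0.49) in ACreb3l2, 0.20 (-0.04 to 0.44) in AXBP1 and 0.31 (0.07 to 0.54) in ACreb3l2/AXBP1, a fold of 1.24 in the last. The unadjusted p-values were 0.0409, 0.0895 and 0.0162, and the edgeR adjusted p-values 0.274, 0.548 and 0.0910. The 3 comparisons share the WT libraries, so they are not separate observations. The ACreb3l2 replicates were apart: the log2 change in ACreb3l2 was 0.09 (adjusted p = 0.780) without the second and 0.40 (adjusted p = 0.121) without the first. In AXBP1 it was 0.05 with limma on log2(FPKM + 0.1), where the median of all tested genes moved to -0.16, and 0.21 on that scale centred on each library's median, a setting chosen after seeing that shift. Scaled by library size alone, Hmgcs1 was called in ACreb3l2/AXBP1 (log2 change 0.47, adjusted p = 0.0457), where that scaling moved the median of all tested genes to 0.17.

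Insig1 and Hmgcs1 thus lay on opposite sides of WT in both groups with AXBP1, and on the same side in ACreb3l2. Neither difference passed the test. The plot of normalised read counts by library shows both patterns beside the other 6 genes.

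**Figure D2:**
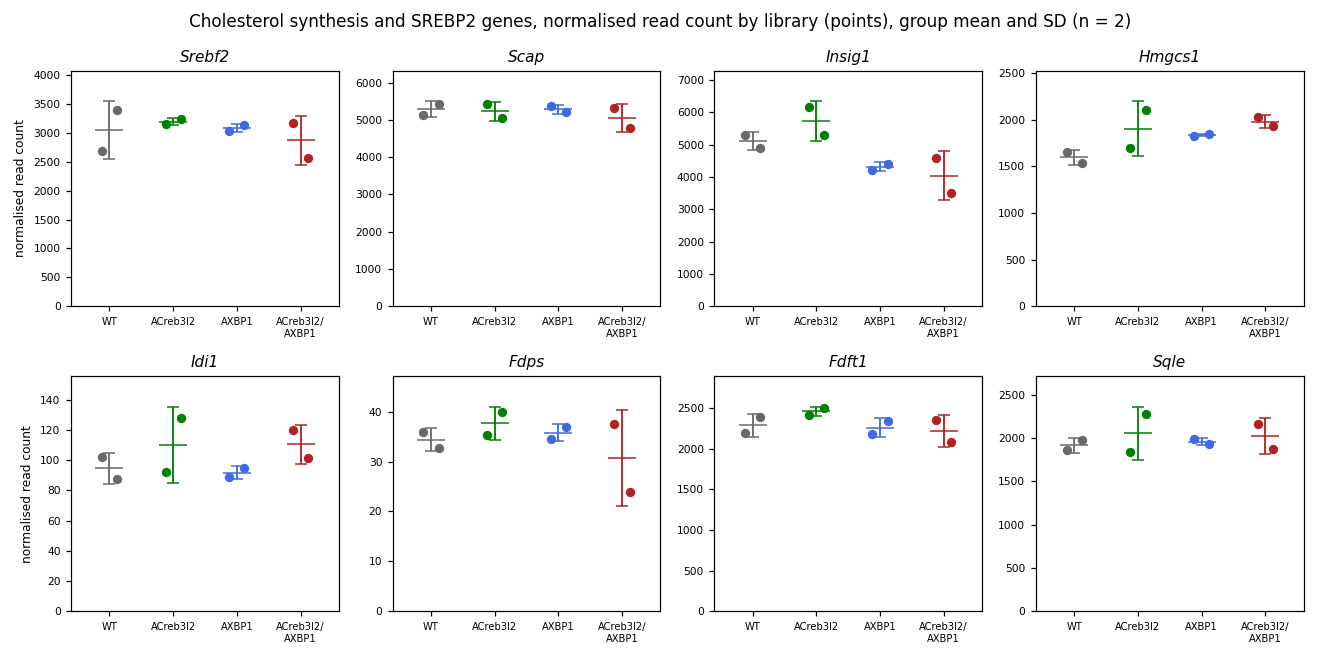
Normalised read count (y axis, from 0) of the 8 genes in each library (points) of the 4 groups, with the group mean (bar) and SD (error bars, n = 2). Insig1 lies lowest in the 2 groups with AXBP1, Hmgcs1 lies above WT in all 6 transgenic libraries, and the remaining genes overlap between most groups.

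Idi1 counts were low and scattered. It was measured at 102 and 87.2 (WT), 92.0 and 128 (ACreb3l2), 89.0 and 94.7 (AXBP1) and 120 and 101 (ACreb3l2/AXBP1). All transgenic groups overlapped WT. Its log2 changes were 0.21 (-0.29 to 0.71), -0.05 (-0.55 to 0.46) and 0.22 (-0.28 to 0.72), and the intervals reach from 0.682-fold to 1.64-fold of WT.

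Fdps was at 35.9 and 32.7 normalised read counts (WT), 35.3 and 40.0 (ACreb3l2), 34.6 and 36.9 (AXBP1) and 37.6 and 24.0 (ACreb3l2/AXBP1). Its log2 changes from counts were 0.13 (-0.53 to 0.78), 0.06 (-0.61 to 0.72) and -0.17 (-0.83 to 0.50). The last rested on 1 library, at -0.52 without ACreb3l2/AXBP1 replicate 1 and 0.12 without replicate 2. On the FPKM scale the same gene was at 24.2 and 30.8 (WT), 28.7 and 30.6 (ACreb3l2), 22.2 and 22.5 (AXBP1) and 25.2 and 22.0 (ACreb3l2/AXBP1). The AXBP1 libraries were thus the lowest or nearly so by FPKM and not by counts. With limma on log2(FPKM + 0.1) its changes against WT were 0.12, -0.29 and -0.21 (adjusted p = 0.736, 0.203 and 0.339), but that scale moved the median of all tested genes by -0.16 in AXBP1 against WT. Centred on each library's median, the 3 values were 0.09, -0.13 and -0.18.

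Squalene synthase, Fdft1, stands where farnesyl diphosphate is committed to sterols. Its normalised read counts were 2189 and 2386 (WT), 2415 and 2497 (ACreb3l2), 2173 and 2344 (AXBP1) and 2357 and 2076 (ACreb3l2/AXBP1). The ACreb3l2 libraries were above both WT libraries by a narrow margin, with a log2 change of 0.10 (-0.10 to 0.31). In AXBP1 it was -0.02 (-0.22 to 0.19), and in ACreb3l2/AXBP1 -0.05 (-0.25 to 0.16).

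Sqle, which encodes a rate-limiting oxygenase of the sterol branch, was at 1856 and 1976 (WT), 1840 and 2271 (ACreb3l2), 1990 and 1928 (AXBP1) and 2166 and 1875 (ACreb3l2/AXBP1). All groups overlapped. Its log2 changes were 0.10 (-0.15 to 0.35), 0.03 (-0.22 to 0.28) and 0.08 (-0.17 to 0.33).

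**Figure D3:**
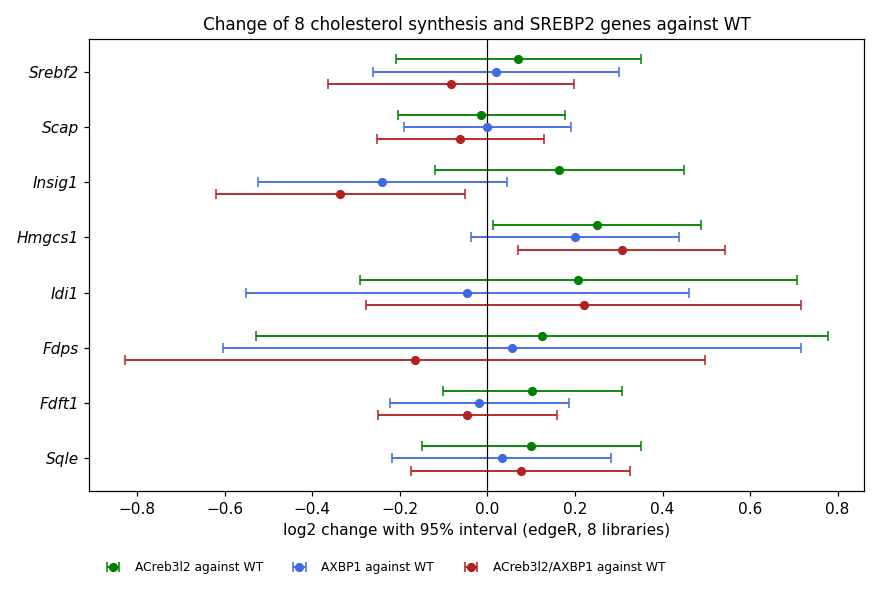
Log2 change against WT (x axis) with 95% interval from the edgeR fit for the 8 genes in ACreb3l2 (green), AXBP1 (blue) and ACreb3l2/AXBP1 (red). Intervals exclude 0 for Hmgcs1 in ACreb3l2 and ACreb3l2/AXBP1 and for Insig1 in ACreb3l2/AXBP1, before adjustment over all genes. Those of Fdps and Idi1 are the widest.

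In ACreb3l2 against WT, 0 of 8 genes were called by edgeR, where 3.04% of all tested genes were called. Of the 8, 1 had an unadjusted p under 0.05 (2610 of 15580 tested genes did), and DESeq2 called 0 (755 over all tested genes). In this comparison 7 were higher and 1 lower, with a median log2 change of 0.11 against 0.01 over all tested genes. The libraries of 2 genes did not overlap between the groups, both higher, where 45.5% of tested genes did not overlap.

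In AXBP1 against WT, edgeR called 0 of 8 and 0% of all tested genes, 0 of 8 had an unadjusted p under 0.05 (1554 of 15580 tested genes did), and DESeq2 called 0 of 8 (79 over all tested genes). Here 4 were higher and 4 lower, with a median log2 change of 0.01. The libraries of 2 genes did not overlap, 1 higher and 1 lower, against 46.1% of tested genes.

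In ACreb3l2/AXBP1 against WT, edgeR called 0 of 8 and 10.1% of all tested genes, 2 of 8 had an unadjusted p under 0.05 (4630 of 15580 tested genes did), and DESeq2 called 0 (2074 over all tested genes). Here 3 were higher and 5 lower, with a median log2 change of -0.05 against 0.01 over all tested genes. Again 2 genes did not overlap, 1 higher and 1 lower, against 58.3% of tested genes.

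Between transgenic groups, edgeR called 0 of 8 in ACreb3l2 against AXBP1 (0.719% of tested genes, 1 member and 1478 of 15580 tested genes with an unadjusted p under 0.05, 0 members and 260 tested genes by DESeq2). It called 0 of 8 in ACreb3l2/AXBP1 against ACreb3l2 (0% of tested genes, 1 member and 1112 tested genes with an unadjusted p under 0.05, by DESeq2 1 member, Insig1, and 41 tested genes). It called 0 of 8 in ACreb3l2/AXBP1 against AXBP1 (0.623% of tested genes, 0 members and 1736 tested genes with an unadjusted p under 0.05, 0 members and 287 tested genes by DESeq2). The interaction, which asks whether the changes of the single transgenics add up in ACreb3l2/AXBP1, called 0 of 8 and 0% of tested genes, with 0 members and 386 tested genes at an unadjusted p under 0.05, and 0 members and 4 tested genes by DESeq2. Its values ran from -0.35 (-1.28 to 0.58) for Fdps to 0.06 (-0.65 to 0.76) for Idi1, with 7 of 8 below 0. Insig1 was at -0.26 (-0.66 to 0.14) and Hmgcs1 at -0.14 (-0.48 to 0.19), intervals that hold 0 and leave room for unequal effects.

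The 8 genes did not move as 1 block. Their mean log2 level relative to WT was 0.06 and 0.19 in the ACreb3l2 libraries, -0.02 and 0.02 for AXBP1, then 0.12 and -0.15 for ACreb3l2/AXBP1. The ACreb3l2/AXBP1 replicates thus lay on opposite sides of WT. Over the 8 libraries the Pearson correlation between pairs of the 8 genes had a median of 0.49 and was above 0 in 23 of 28 pairs. These correlations describe libraries that share groups, scaling and composition, and no test was made. Srebf2 and Fdft1 were the closest pair (0.86), followed by Hmgcs1 and Idi1 (0.79), and Scap and Hmgcs1 were the farthest apart (-0.48). Insig1 went with Fdft1 (0.70) and Fdps (0.67) rather than with Hmgcs1 (-0.33). The tested genes whose levels were most like the mean of the 8 were Trbc2 (0.94), Ikbkb (0.93), Vapb (0.93), Taldo1 (0.93) and Snrnp200 (0.93). Among the pathway lists below the nearest were Pdss2 (0.88) and Aacs (0.77).

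Of the 15 other enzymes of sterol synthesis, all tested, edgeR called 0 in ACreb3l2 against WT (0 with an unadjusted p under 0.05) and 0 in AXBP1 against WT (3 with an unadjusted p under 0.05), as did DESeq2. In ACreb3l2/AXBP1 both tools called the same 2 of 15, both lower, where edgeR called 10.1% of all tested genes and DESeq2 2074 of 15580. Ebp, the sterol isomerase, was at 1091 and 1224 in WT and 860 and 739 in ACreb3l2/AXBP1, and its log2 change was -0.53 ± 0.13 (SE, adjusted p = 0.0301). Msmo1, the sterol methyl oxidase, was at 1993 and 1829 (WT), 1794 and 1847 (ACreb3l2), 1416 and 1503 (AXBP1) and 1571 and 1363 (ACreb3l2/AXBP1). All libraries with AXBP1 were below all others for Msmo1. Its log2 change was -0.38 ± 0.10 (SE, adjusted p = 0.0347) in ACreb3l2/AXBP1 and -0.39 ± 0.10 in AXBP1, where the adjusted p was 0.474. The median of the 15 was -0.07, -0.11 and -0.15 in the 3 comparisons, and the lowest values were those of Dhcr7 (-0.31) in ACreb3l2, Msmo1 in AXBP1 and Ebp in ACreb3l2/AXBP1. The Msmo1 call was lost in 11 of 19 other settings, 7 of which left out 1 library (any but ACreb3l2/AXBP1 replicate 1), and the Ebp call in 4, among them without WT replicate 2 and without ACreb3l2/AXBP1 replicate 2.

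Of 9 genes of SREBP processing and sterol sensing, edgeR and DESeq2 called 0 in each comparison with WT. Over all tested genes edgeR called 3.04%, 0% and 10.1%, and DESeq2 755, 79 and 2074, for ACreb3l2, AXBP1 and ACreb3l2/AXBP1. In the same order, 1, 0 and 5 of the 9 reached an unadjusted p under 0.05, against 2610, 1554 and 4630 of 15580 tested genes. In ACreb3l2/AXBP1, Insig2, the constitutive relative of Insig1, stood highest of this list at 0.33 ± 0.11 (SE, edgeR adjusted p = 0.0899), where Insig1 had -0.34. Srebf1, which encodes the SREBP of fatty acid synthesis, was highest in ACreb3l2 (0.24 ± 0.11, adjusted p = 0.299) and Rnf139 in AXBP1 (0.22 ± 0.13). Erlin1 was lowest in all 3, at -0.30, -0.15 and -0.30. The medians were 0.07, 0.17 and 0.20.

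Sterol uptake and other SREBP2 targets were represented by 7 tested genes. Among them Tmem97, which encodes a sterol-binding membrane protein that is induced by SREBP, was called lower in both groups with ACreb3l2, as the 1 call of 7 in each (3.04% and 10.1% of all tested genes), where 2 and 4 of 7 had an unadjusted p under 0.05. It was at 556 and 684 (WT), 219 and 256 (ACreb3l2), 550 and 525 (AXBP1) and 264 and 245 (ACreb3l2/AXBP1). The ACreb3l2 and ACreb3l2/AXBP1 libraries formed a low set well apart from the WT and AXBP1 libraries. Its log2 change against WT was -1.39 ± 0.14 (SE, edgeR adjusted p = 0.00106) in ACreb3l2 and -1.28 ± 0.14 (adjusted p = 0.00136) in ACreb3l2/AXBP1. In AXBP1 it was -0.20 ± 0.13 (adjusted p = 0.595). The comparison of ACreb3l2/AXBP1 with AXBP1, which shares no library with that of ACreb3l2 with WT, gave -1.08 ± 0.14 (adjusted p = 0.00834). Both took their spread from the same fit over all 8 libraries, so their p-values are not independent. The direct test of ACreb3l2 against AXBP1 gave -1.18 ± 0.14 (adjusted p = 0.00580). Both calls against WT held in all 19 other settings, and both calls against AXBP1 were lost in 3 of them, each leaving out 1 library: without AXBP1 replicate 1, without AXBP1 replicate 2, and without ACreb3l2 replicate 1 or ACreb3l2/AXBP1 replicate 2, respectively.

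No other gene of that list was called by edgeR, which called 0 of 7 in AXBP1 (1 with an unadjusted p under 0.05, 0 by DESeq2), and DESeq2 added Fabp5 in ACreb3l2/AXBP1. Fabp5, a fatty acid binding protein, was at 1122 and 1335 (WT), 1267 and 805 (ACreb3l2), 662 and 481 (AXBP1) and 644 and 334 (ACreb3l2/AXBP1). Its log2 change was -1.10 ± 0.37 (SE, adjusted p = 0.491) in AXBP1 and -1.33 ± 0.37 (adjusted p = 0.0739) in ACreb3l2/AXBP1, the lowest of the list in both. Stard4, a sterol transport protein, was the highest in all 3, at 0.35, 0.17 and 0.42. The list medians were 0.13, -0.02 and -0.14.

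**Figure D4:**
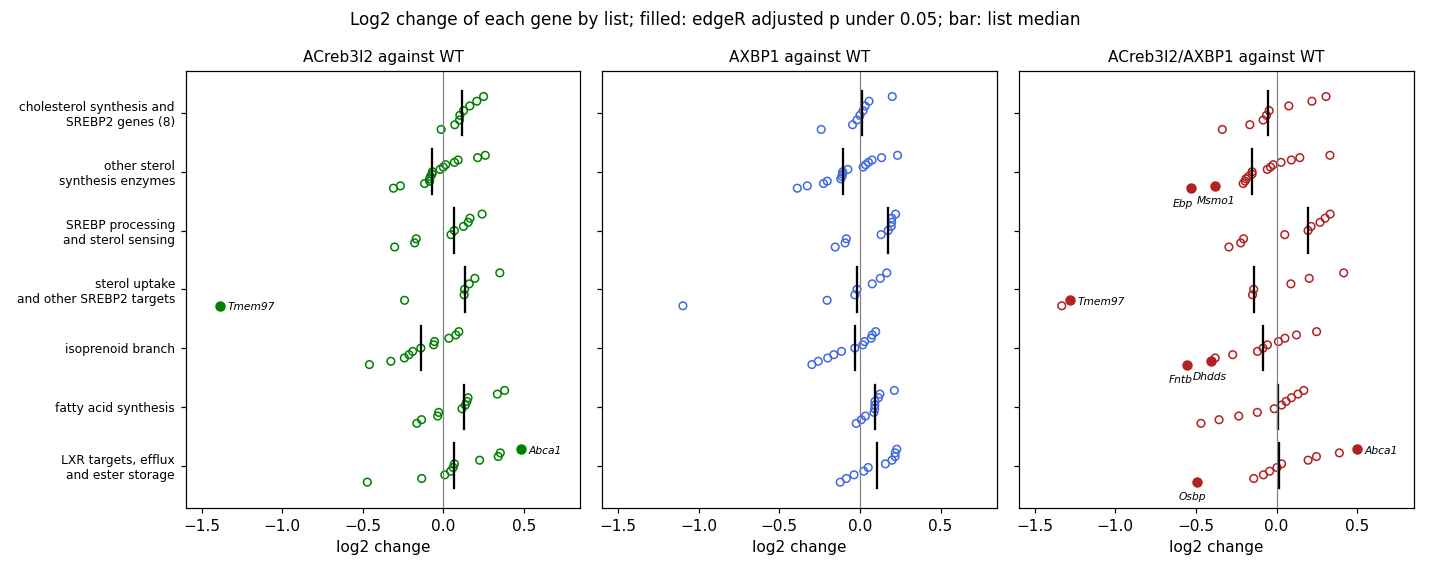
Log2 change against WT (x axis) of each tested gene of 7 lists (rows) in ACreb3l2 (left), AXBP1 (middle) and ACreb3l2/AXBP1 (right). Filled points passed the edgeR test (adjusted p under 0.05) and vertical bars are list medians. The row of the 8 genes holds no filled point, and Tmem97 lies at -1.39 and -1.28 in the left and right panels.

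On the isoprenoid branch, which leaves the pathway at the isopentenyl and farnesyl steps, edgeR called 0 of 11 in ACreb3l2 (3 with an unadjusted p under 0.05) and 0 in AXBP1 (1), with 0 by DESeq2 in both, and 2 in ACreb3l2/AXBP1, both lower. Over all tested genes edgeR called 3.04% in ACreb3l2 and 0% in AXBP1, and DESeq2 755 and 79. In ACreb3l2/AXBP1, with 4 of 11 at an unadjusted p under 0.05, the 2 of 11 stand against 10.1% of all tested genes called by edgeR. There DESeq2 called 3 of 11 (2074 of 15580 tested genes), the same 2 and Dolk, dolichol kinase (edgeR log2 change -0.38, adjusted p = 0.0534). Dhdds, a subunit of the dolichol-making prenyltransferase, was at 2773 and 3073 in WT and 2309 and 2093 in ACreb3l2/AXBP1 (log2 change -0.41 ± 0.09, SE, adjusted p = 0.0189). Fntb, a farnesyltransferase subunit, was at 785 and 910 in WT and 639 and 516 in ACreb3l2/AXBP1 (-0.55 ± 0.12, adjusted p = 0.0247). Fntb shares 257 exon bases on the same strand with Churc1, so its counts are uncertain there. Each call was lost in 4 of 19 other settings, among them without WT replicate 2 and without ACreb3l2/AXBP1 replicate 2, and for Fntb also without AXBP1 replicate 2. Other extremes of the list were Fntb (-0.46) and Pdss2 (0.10) in ACreb3l2, Pdss1 (-0.30) and Nus1 (0.10) in AXBP1, and Ggps1 (0.25) in ACreb3l2/AXBP1. List medians were -0.14, -0.03 and -0.08.

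For fatty acid synthesis, the pathway under SREBP1, edgeR called 0 of 10 genes in each comparison with WT. Over all tested genes the shares were 3.04% (ACreb3l2), 0% (AXBP1) and 10.1% (ACreb3l2/AXBP1). At an unadjusted p under 0.05 were 0, 0 and 1 of 10, against 2610, 1554 and 4630 of 15580 tested genes. DESeq2 called 0, 0 and 1, against 755, 79 and 2074 over all tested genes. Its 1 call was Fasn, fatty acid synthase (edgeR log2 change -0.36, adjusted p = 0.0804). Scd1, the stearoyl-CoA desaturase, had the extreme value in both groups with ACreb3l2, 0.38 ± 0.23 (SE) in ACreb3l2 and -0.47 ± 0.23 in ACreb3l2/AXBP1. For ACreb3l2/AXBP1 against ACreb3l2, Scd1 was at -0.85 ± 0.23 (edgeR adjusted p = 0.688), and DESeq2 called it there. Scd2 was the lowest in ACreb3l2 (-0.16), and Fasn (-0.02) and Fads2 (0.21) bounded the list in AXBP1. Fads2 was also the highest in ACreb3l2/AXBP1 (0.17). The list medians were 0.13, 0.09 and 0.01.

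Of 10 genes of sterol efflux, its sensor LXR and ester storage, edgeR called 1 in ACreb3l2 (3.04% of all tested genes), 0 in AXBP1 (0%, and 0 by DESeq2) and 2 in ACreb3l2/AXBP1 (10.1%), with 5, 2 and 4 at an unadjusted p under 0.05. Abca1, the cholesterol export pump, was at 6390 and 6031 (WT), 8674 and 8634 (ACreb3l2), 7718 and 6831 (AXBP1) and 8350 and 9197 (ACreb3l2/AXBP1). Every transgenic library was above both WT libraries. Its log2 change was 0.48 ± 0.09 (SE, adjusted p = 0.0223) in ACreb3l2, 0.23 in AXBP1 and 0.50 ± 0.09 (adjusted p = 0.0119) in ACreb3l2/AXBP1. Osbp, an oxysterol-binding transfer protein, was at 3214 and 4072 in WT and 2735 and 2438 in ACreb3l2/AXBP1 (-0.49 ± 0.11, adjusted p = 0.0266). It was at 2542 and 2711 in ACreb3l2, called there by DESeq2 and not by edgeR (-0.47), and was the lowest of the list in AXBP1 at -0.12. List medians were 0.06, 0.10 and 0.02. The Abca1 call in ACreb3l2 was lost in 7 of 19 other settings, among them without WT replicate 2 and without either ACreb3l2 replicate. In ACreb3l2/AXBP1 it was lost in 3, among them without WT replicate 2 and without ACreb3l2/AXBP1 replicate 2. The Osbp call was lost in 7, among them without those same libraries and without either AXBP1 replicate.

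**Figure D5:**
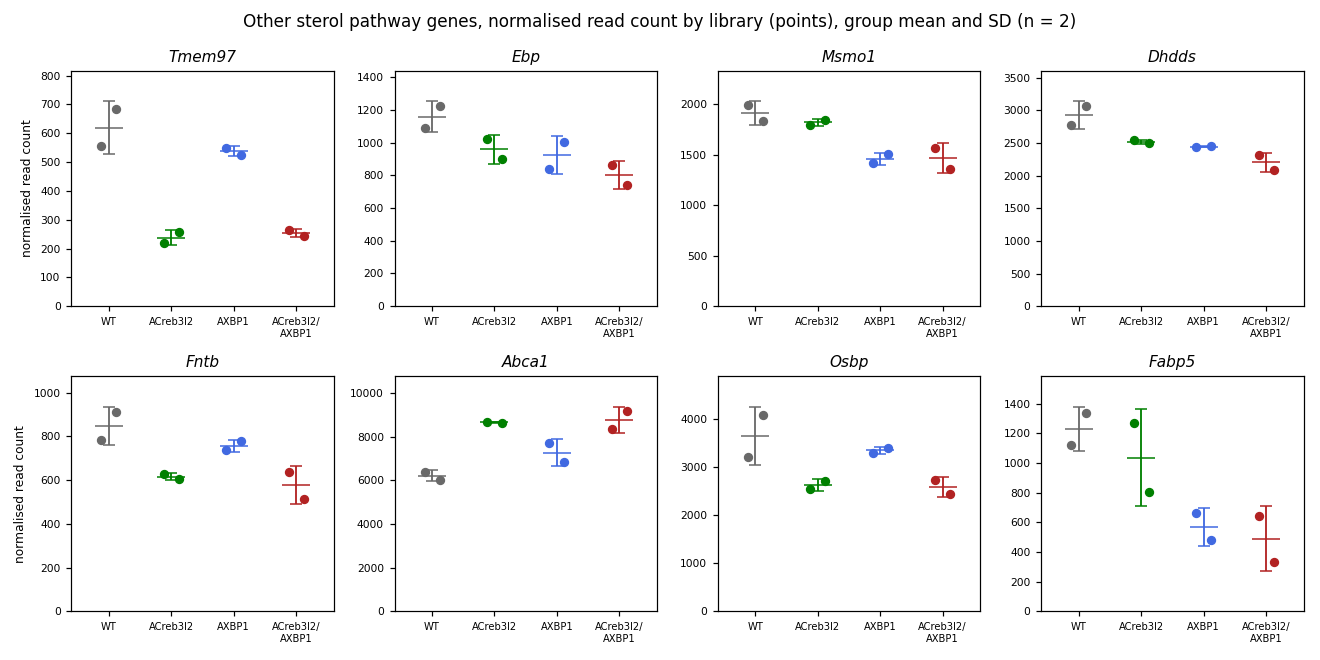
Normalised read count (y axis, from 0) of the 7 list genes called in a comparison with WT, and of Fabp5, in each library (points) with group mean (bar) and SD (error bars, n = 2). Tmem97 is low in all 4 libraries with ACreb3l2, Msmo1 in all 4 with AXBP1, and Abca1 lies above WT in all 6 transgenic libraries.

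Markers of the cell types of the lobe were measured in the same libraries, as mean log2 levels relative to the WT mean. That of 10 oligodendrocyte lineage transcripts was 0.13 and -0.13 in the WT libraries, 0.92 and 0.50 in the ACreb3l2 libraries, with Cnp (0.52) and Mobp (1.45) called higher, 0.56 and 0.11 for AXBP1, then 0.64 and 0.38 for ACreb3l2/AXBP1. That of 6 melanotrope transcripts was -0.17 and 0.17 (WT), -0.24 and -0.16 (ACreb3l2), -0.31 and -0.18 (AXBP1) and -0.31 and -0.77 (ACreb3l2/AXBP1), and in the last group Tbx19 (-0.88) and Scg2 (-0.57) were called lower. No transcript of the other 5 marker lists was called against WT by edgeR. The mean level of 7 endothelial transcripts ran from -0.41 (ACreb3l2 replicate 2) to 0.68 (ACreb3l2/AXBP1 replicate 2) against 0.17 and -0.17 in WT, with the ACreb3l2 replicates on opposite sides of WT, and of 6 anterior lobe transcripts from -0.75 (AXBP1 replicate 1) to 0.27 (ACreb3l2 replicate 1). The ranges over transgenic libraries were 0.06 to 0.36 for 8 transcripts of pituicytes and astroglia, -0.18 to 0.37 for 7 of macrophages and -0.29 to 0.48 for 6 of fibroblasts and pericytes. No list had a transcript at 0 in all libraries. Sterol genes are expressed by all of these cell types, and the part of cell composition in the values above was not tested.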

How the data were processed

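RNA was sequenced by the authors as 50-base paired reads from 8 pools of 5 lobes. According to the study's methods they trimmed reads with Trimmomatic, aligned them with Tophat to mm10, and counted them with HTSeq-count. A software list with the study also names STAR and cufflinks, the labels name ribosomal depletion where the methods text names an mRNA kit, and the annotation release and strand setting are not given in the sources used here. The deposited counts are raw reads per Ensembl gene, with no normalization. The deposited FPKM values are fragments per kilobase scaled to library size, as estimated by the authors, and 51 genes split over several loci were summed.

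Groups came from the labels. Genes with a mean median-ratio scaled count above 20 (15580) were fitted in edgeR 4.0.16 (R 4.3.3) with TMM factors (0.913 to 1.10), robust quasi-likelihood and 1 mean per group over all 8 libraries. The common coefficient of variation was 0.107. P-values were adjusted by Benjamini-Hochberg within each of 7 comparisons and a gene was called under 0.05. No adjustment was made over the 8 genes alone. Replicates were distinct libraries (log2 correlation across genes 0.987 to 0.993, chi-square per degree of freedom 10.7 to 48.5). The fit was tested on simulated counts with known changes. Alternatives were DESeq2 1.42.0, limma 3.58.1 on log2(FPKM + 0.1) or log2(FPKM + 1), other scalings and filters, a replicate block, and each library left out. The FPKM fit centred on library medians was added after seeing the data. Exon overlaps came from GENCODE M21, copies from a BLAST search of each gene's longest coding transcript against all transcripts, and promoters from RefSeq. The 8 genes, lists, markers and motifs were chosen with earlier results of these data known. All 8 genes are reported; a list gene is named when called against WT or when it has its list's extreme change. Values of some list genes that this rule would name are not reported here.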

Additional observations from a re-analysis of the deposited data

Results flagged for a closer look

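Tmem97 differed between the single transgenic groups in the direct test. Its log2 change in ACreb3l2 against AXBP1 was -1.18 (95% interval -1.49 to -0.87, edgeR adjusted p = 0.00580), with all 4 libraries with ACreb3l2 below all 4 without it. By FPKM the 4 libraries with ACreb3l2 were again below the other 4: 11.5 and 13.8 (WT), 4.71 and 5.15 (ACreb3l2), 9.95 and 9.59 (AXBP1) and 5.04 and 5.31 (ACreb3l2/AXBP1). None of the 8 genes and no other list gene passed this test or that of the interaction by edgeR.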

How the results depend on the processing

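No value of the 8 genes passed the test with the reverse sign in 19 other settings (1056 values), 6 values passed it where the reported fit did not, and 93 uncalled values had the other sign (-0.29 to 0.14). In ACreb3l2/AXBP1 against WT, 1 gene was called with library sizes alone (Hmgcs1, 0.47, adjusted p = 0.0457) and 1 with no filter on low counts (Insig1, -0.34, adjusted p = 0.0129). Leaving out 1 library gave 0 to 1, the call being Insig1 without ACreb3l2/AXBP1 replicate 1. With no filter, 1 gene, Insig1, was also called in ACreb3l2 against AXBP1 (0.41, adjusted p = 0.00518) and in ACreb3l2/AXBP1 against ACreb3l2 (-0.51, adjusted p = 0.000188). DESeq2 called 1 in the latter (Insig1). Without the filter the calls over all genes rose as well, from 473 to 1455 for ACreb3l2, 0 to 628 for AXBP1 and 1566 to 3209 for ACreb3l2/AXBP1, all against WT. Why was not tested. Over the remaining settings with all libraries, these counts ran as low as 263, 0 and 658, and with a library left out from 152 to 623, 0 to 9 and 215 to 2050. Between transgenic groups the counts over all genes ran from 30 to 730 (ACreb3l2 against AXBP1, 112 reported), 0 to 513 (ACreb3l2/AXBP1 against ACreb3l2, 0 reported) and 32 to 755 (ACreb3l2/AXBP1 against AXBP1, 97 reported), and from 0 to 126 for the interaction (0 reported). With a library left out they ran from 16 to 155, 0 to 11, 7 to 155 and 0 to 2. On the log2(FPKM + 0.1) scale the median of all tested genes moved to -0.16 in AXBP1 against WT, 0.18 in ACreb3l2 against AXBP1, 0.12 in ACreb3l2/AXBP1 against AXBP1 and 0.10 in the interaction. Of the calls among list genes, those of Tmem97 against WT held in every setting and none reversed.

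With the replicate number as a replicate block, 0 of the 8 genes were called in each of the 7 comparisons, and calls over all genes were 321, 3 and 1113 against WT. Across the tested genes the replicate differences of the groups correlated at -0.175 to 0.0867, little sign of pairing by replicate number. Such values cannot show whether pools shared litters or dissection days. The block ended the calls of Abca1 in ACreb3l2 (adjusted p = 0.0507) and of Msmo1 in ACreb3l2/AXBP1 (adjusted p = 0.0556), with log2 changes of 0.48 and -0.38 as without it. With 2 libraries per group and a coefficient of variation of 0.107, the narrowest intervals of the 8 genes were those of Scap, and the low counts of Idi1 and Fdps went with the widest.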
